A study of Chlorocebus aethiops with 10 samples.

Results

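The respiratory chain genes described here are those of the nuclear-encoded subunits of complexes I to V, the machinery of oxidative phosphorylation in the inner mitochondrial membrane. They were taken by symbol, as every gene named NDUFA, NDUFB, NDUFC, NDUFS or NDUFV with a number, SDHA to SDHD, or with a name that starts with UQCR, COX4 to COX8 or ATP5. This gave 79 genes on 93 array features, of 16583 named genes on 45033 features. Complex I held 35 of them, complex II 3, complex III 7, complex IV 16 and complex V 16, and the symbol rule also took COX7A2L and ATP5IF1, which are not subunits of a single complex. The 13 subunits encoded in mitochondrial DNA were not analysed here.

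Liver was sampled by biopsy from 10 adult female African green monkeys, Chlorocebus aethiops, that were obese and had been on high-fat feeding for 12 weeks. One-colour arrays were used, 1 per animal. Treated animals (n = 5) were given antimiR-33a/b, an oligonucleotide with locked nucleic acid bases that blocks the microRNAs miR-33a and miR-33b. It was injected subcutaneously, starting with 20 mg/kg on day 0, followed by weekly doses of 5 mg/kg. Vehicle animals (n = 5) received 0.9% NaCl. Biopsies came from day 57, after 8 weeks of treatment, and the diet was common to both groups. The spread given below is that between animals. The deposited values were centred per feature. A value of 0 is therefore near the middle of that feature's own range, levels of different genes cannot be compared, and whether the defining markers of liver were present could not be read from them. The base of the logarithm is unknown, log2 was assumed, and with a natural log every fold would be further from 1. In bulk tissue, fewer cells of a type and less RNA per cell cannot be told apart.

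Complex I takes electrons from NADH, and complex II from succinate, and both pass them through ubiquinone to complex III. Cytochrome c carries them on to complex IV, which reduces oxygen. Complexes I, III and IV pump protons, and complex V, the ATP synthase, lets them return while it makes ATP. Hepatocytes are rich in mitochondria and use this ATP for gluconeogenesis, urea synthesis and the making of lipids and secreted proteins. Several complex IV subunits exist as general and tissue-restricted isoforms, the latter known mainly from muscle, lung or testis.

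Of the 79 genes, 27 were higher in treated animals and 5 were lower at an adjusted p under 0.05 (limma, Benjamini-Hochberg over all 16583 genes), and 47 did not pass. That is 34.2% higher and 6.33% lower. Over all genes 20.5% passed, 13.7% higher and 6.8% lower. The estimate was above 0 for 64 of the 79 genes, and their median difference, treated minus vehicle, was 0.19 against 0.039 over all genes. All 5 treated values lay above all 5 vehicle values for 12 of the genes, where 8.79% of all genes did so, and below them for 3, where 4.52% of all genes did so. After quantile normalization 15 of the 79 were higher and 5 lower, while the shares over all genes became 10.8% and 9.07%; with every array shifted to the same median they were 13.7% and 9.70%. The count of higher genes ran from 10 without treated animal 3 to 34 without vehicle animal 4. It was 11 without vehicle animal 1, 12 without treated animal 1, 15 without vehicle animal 2 and 17 without vehicle animal 3 or treated animal 4. The count of lower genes was 3 without any one of vehicle animals 1, 2, 3 and 5 or treated animals 1, 2 and 3. Over all genes 3.84% to 7.59% were lower in those fits. Of the 32 genes past the threshold, 13 did so whichever of the 10 animals was left out, 10 of them higher and 3 lower. By an exact two-sided permutation test per gene, whose smallest p of 0.0079 adjusts to 0.0596 over all genes, none of the 79 and none of all genes passed. An unadjusted exact p under 0.05 was found for 44 of the 79. The share of all genes at that level was not counted, so this count says nothing particular to these genes. In the limma fits without 1 animal the other 19 genes missed the threshold in 2 to 8 cases, with a largest adjusted p of 0.0506 to 0.120.

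**Figure D1:**
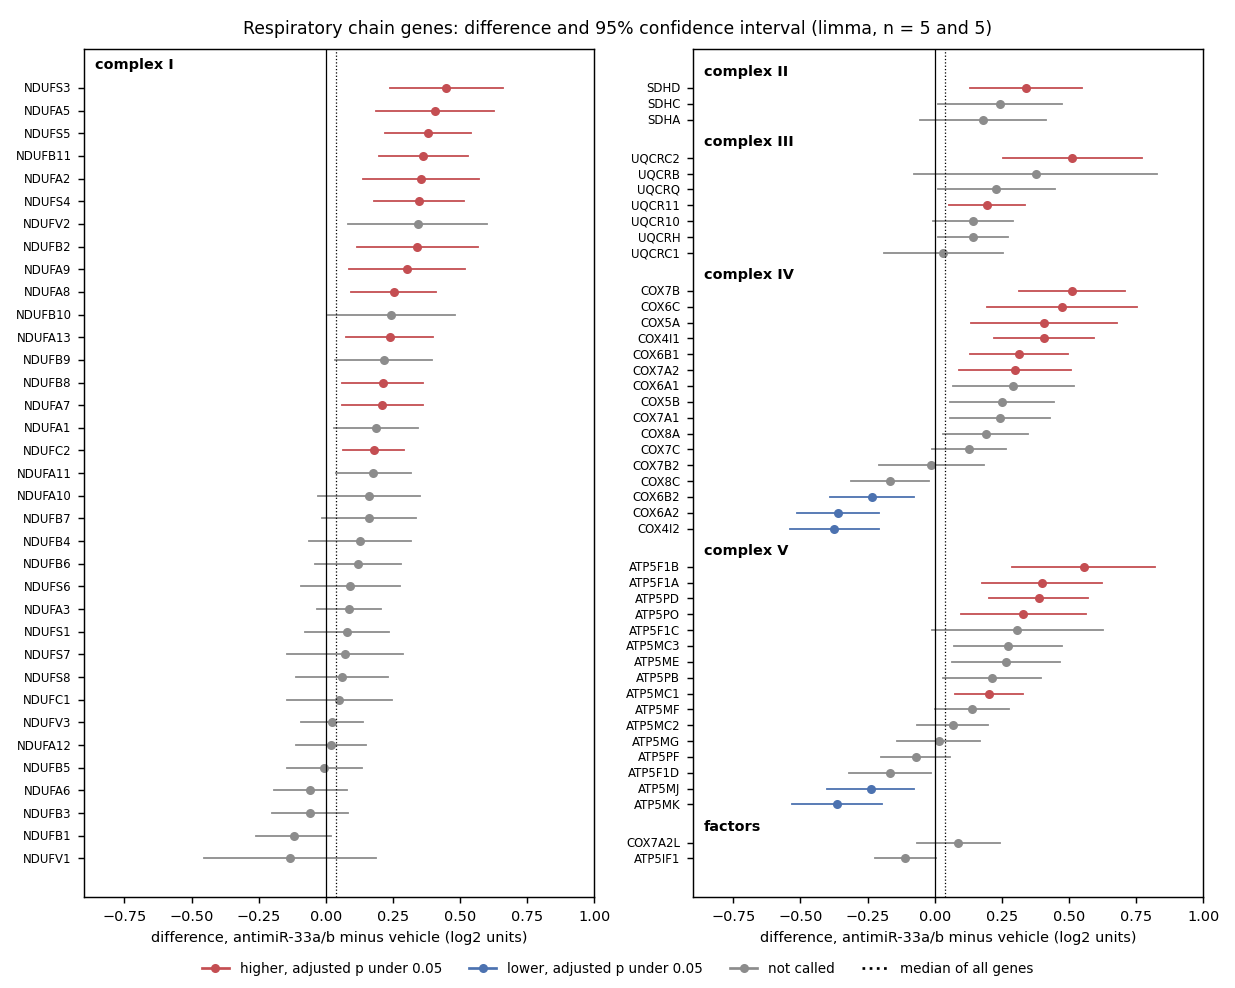
Difference in expression between antimiR-33a/b and vehicle animals (log2 units, n = 5 per group) for each of the 79 respiratory chain genes, grouped by complex, with 95% confidence intervals and the genes past the threshold coloured by direction. Genes above 0 prevail in every complex, and the 3 lower genes of complex IV are all tissue-restricted isoforms.

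In complex I, 13 of 35 genes rose and none fell, with a median difference of 0.18. The rises were spread over its parts. They comprised 3 of 10 genes of the NADH-oxidising module (median difference 0.085), 3 of 5 of the ubiquinone-reducing module (0.30) and 7 of 20 of the membrane arm (0.18). NDUFS5, a small subunit of the membrane arm that faces the intermembrane space, read -0.38, -0.13, -0.15, -0.19 and -0.17 in vehicle animals 1 to 5. It read 0.30, 0.086, 0.28, 0.24 and -0.011 in treated animals 1 to 5. Every treated animal was above every vehicle animal, vehicle animal 1 was the lowest and treated animal 5 the lowest of its group. The difference was 0.38 (SE 0.074, 1.30-fold, adjusted p = 0.00568). NDUFB11, an accessory subunit of the same arm encoded on the X chromosome in human, read -0.51, -0.27, -0.11, -0.22 and -0.21 in vehicle animals. Its treated values were 0.14, 0.087, 0.23, 0.088 and -0.040, again with no overlap. The difference was 0.36 (SE 0.077, 1.29-fold, adjusted p = 0.00804).

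NDUFS4, an accessory subunit of the NADH module whose loss causes Leigh syndrome in human, read -0.39, -0.15, -0.047, -0.11 and -0.18 in vehicle animals 1 to 5 and 0.15, 0.13, 0.31, 0.27 and -0.0010 in treated animals. The groups did not overlap, and treated animal 5 was the closest to the vehicle range. NDUFS4 rose by 0.35 (SE 0.077, 1.27-fold, adjusted p = 0.0101). NDUFS3, a core subunit of the ubiquinone module, read -0.44, -0.15, -0.31, 0.0052 and -0.44 in vehicle animals and 0.26, 0.13, 0.39, 0.12 and -0.0052 in treated animals. Its groups met at vehicle animal 4 and treated animal 5, and its rise, 0.45 (SE 0.098, 1.36-fold, adjusted p = 0.00910), had the largest estimate in complex I. NDUFA5, an accessory subunit of the same module, read -0.55, -0.44, -0.22, -0.17 and -0.28 in vehicle animals and 0.30, -0.23, 0.090, 0.23 and -0.017 in treated animals. Treated animal 2 lay among the vehicle values, and the difference was 0.41 (SE 0.10, 1.33-fold, adjusted p = 0.0164). NDUFA2, a small soluble accessory subunit of the NADH module, rose by 0.35 (SE 0.10, 1.28-fold, adjusted p = 0.0260) but missed the threshold in 4 of the 10 fits without 1 animal, with an adjusted p of 0.0667 without treated animal 3. After quantile normalization NDUFA2 missed it too (adjusted p = 0.0732).

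Of the 29 complex I genes outside the naming rule, 7 rose, by 0.18 to 0.34, and 22 did not pass, with all 29 estimates between -0.13 and 0.34. These 7 (NDUFA7, NDUFA9, NDUFA8, NDUFA13, NDUFB2, NDUFB8 and NDUFC2) each missed the threshold in 4 to 8 of the fits without 1 animal. NDUFV1, the subunit that binds FMN and oxidises NADH, is named here after its values were seen. It read 0.021, 0.34, -0.16, 0.46 and -0.36 in vehicle animals and 0.25, -0.22, 0.053, -0.28 and -0.18 in treated animals. All treated values lay within the vehicle range, and the difference was -0.13 with an adjusted p of 0.546. The complex I count was 5 without vehicle animal 1, treated animal 1 or treated animal 3, where 7.77% to 10.2% of all genes were higher. It was 7 without vehicle animal 2, vehicle animal 3 or treated animal 4, where 8.34% to 10.5% of all genes were higher.

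In complex II 1 of the 3 measured genes passed. SDHD, one of the membrane anchors of succinate dehydrogenase, read -0.45, -0.22, -0.36, 0.044 and -0.40 in vehicle animals and 0.28, -0.094, 0.12, -0.014 and 0.018 in treated animals. Vehicle animal 4 lay inside the treated range while the other vehicle animals lay below it. SDHD rose by 0.34 (SE 0.097, 1.27-fold, adjusted p = 0.0278), and the call was lost in 5 of 10 fits without 1 animal, with an adjusted p of 0.0734 without vehicle animal 1, after quantile normalization (0.102) and with a common array median (0.0514). No complex II gene passed without vehicle animal 1, 3 or 5 or treated animal 1 or 3. The other anchor, SDHC, differed by 0.24 (adjusted p = 0.125). The flavoprotein SDHA, which oxidises succinate, differed by 0.18 (adjusted p = 0.250), and by 0.095 without vehicle animal 5.

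In complex III all 7 estimates were above 0, with a median of 0.20, and 2 genes passed. UQCRC2, a core protein of the matrix side, read -0.35, -0.30, -0.35, -0.022 and -0.71 in vehicle animals and 0.29, -0.076, 0.44, 0.17 and 0.021 in treated animals. Vehicle animal 5 was the lowest by far, vehicle animal 4 the highest of its group and above treated animal 2. UQCRC2 rose by 0.51 (SE 0.12, 1.43-fold, adjusted p = 0.0121) and passed in every fit without 1 animal. Its partner core protein UQCRC1 read 0.11, 0.13, -0.18, 0.16 and -0.30 in vehicle animals and 0.12, -0.18, 0.22, 0.020 and -0.11 in treated animals, which spanned much the same range. The UQCRC1 difference was 0.033 (adjusted p = 0.850), and after quantile normalization it was -0.026.

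UQCR11, a very small accessory subunit of complex III, read 0.028, -0.15, -0.10, -0.27 and -0.014 in vehicle animals and 0.054, 0.19, 0.049, 0.096 and 0.085 in treated animals. The groups did not overlap, though treated animal 3 exceeded vehicle animal 1 narrowly, and the rise was 0.20 (SE 0.065, 1.14-fold, adjusted p = 0.0491). It missed the threshold in 8 of the 10 fits without 1 animal, with an adjusted p of 0.107 without vehicle animal 2. UQCRB, which contributes to the ubiquinone site, had the widest spread of all 79 genes in both groups. It read -0.084, -0.87, 0.011, -0.21 and 0.025 in vehicle animals and 0.49, 0.23, 0.27, -0.65 and 0.40 in treated animals. Vehicle animal 2 and treated animal 4 stood far below their groups, and the difference of 0.38 had a standard error of 0.21 and an adjusted p of 0.216. It was 0.21 (adjusted p = 0.457) without vehicle animal 2 and 0.58 (adjusted p = 0.0307) without treated animal 4. The small accessory subunits UQCRQ and UQCR10, and UQCRH, the hinge protein that assists electron transfer to cytochrome c, differed by 0.23, 0.14 and 0.14, with adjusted p-values of 0.123, 0.158 and 0.107. Without vehicle animal 4 UQCRQ passed (0.30, adjusted p = 0.0378). The count of higher complex III genes was 1 without vehicle animal 2 or 3, or without treated animal 1, 2, 3 or 5.

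Complex IV, cytochrome c oxidase, has general and tissue-restricted isoforms of several subunits, and these were counted apart. Of the 10 genes of general isoforms 6 rose and none fell, with a median difference of 0.31. Of the 6 tissue-restricted isoforms none rose and 3 fell, with a median of -0.20. With the covariate described further on, the medians were 0.14 for the general and -0.0048 for the restricted isoforms. No isoform of either kind passed there. Among the general isoforms, COX7B, a small subunit encoded on the X chromosome in human, read -0.67, -0.28, -0.20, -0.29 and -0.32 in vehicle animals 1 to 5. It read 0.28, 0.20, 0.29, 0.022 and 0.0064 in treated animals 1 to 5. The groups did not overlap, with vehicle animal 1 the lowest. COX7B rose by 0.51 (SE 0.092, 1.43-fold, adjusted p = 0.00410), the smallest adjusted p of the 79 genes. COX4I1, the general form of the subunit that binds ATP as a regulator, read -0.47, -0.34, -0.25, -0.19 and -0.21 in vehicle animals and 0.23, 0.026, 0.35, 0.082 and -0.11 in treated animals. These groups were also separate, treated animal 5 being nearest to the vehicle animals, and the rise was 0.41 (SE 0.087, 1.33-fold, adjusted p = 0.00831).

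COX6C, a small membrane subunit, read -0.65, -0.35, -0.15, -0.15 and -0.024 in vehicle animals and 0.50, 0.078, 0.43, 0.13 and -0.081 in treated animals. Vehicle animal 5 and treated animal 5 were the points of overlap, and the difference was 0.47 (SE 0.13, 1.39-fold, adjusted p = 0.0226). COX6B1, which joins monomers on the side of cytochrome c, rose by 0.31 (SE 0.085, 1.24-fold, adjusted p = 0.0220). COX6C missed the threshold in 4 fits without 1 animal (adjusted p = 0.0594 without treated animal 3) and COX6B1 in 3 (adjusted p = 0.0602 without vehicle animal 1). After quantile normalization the adjusted p of COX6B1 was 0.0591. The other 6 general genes had estimates of 0.13 to 0.41, and 2 of them, COX5A and COX7A2, passed in the fit of all animals. The count of higher complex IV genes was 2 without vehicle animal 1, treated animal 1 or treated animal 3, 3 without vehicle animal 2 and 4 without treated animal 4.

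Among the tissue-restricted isoforms, COX4I2, the form known from lung and from cells that sense oxygen, read 0.21, 0.42, 0.31, 0.026 and 0.28 in vehicle animals and -0.22, -0.022, -0.085, -0.053 and -0.24 in treated animals. All treated animals were below all vehicle animals, and vehicle animal 4 was the lowest of its group. COX4I2 fell by 0.37 (SE 0.077, 0.772-fold, adjusted p = 0.00720). COX6A2, the heart and skeletal muscle form of subunit 6A, read 0.35, 0.27, 0.24, 0.11 and 0.20 in vehicle animals and -0.31, -0.0081, -0.15, -0.024 and -0.15 in treated animals, again without overlap. It fell by 0.36 (SE 0.070, 0.779-fold, adjusted p = 0.00562). COX6B2, the testis form of subunit 6B, read 0.22, 0.21, 0.24, -0.0016 and 0.33 in vehicle animals and -0.10, -0.042, -0.094, 0.14 and -0.076 in treated animals. Treated animal 4 and vehicle animal 4 were the points of overlap, and the fall of 0.23 (SE 0.072, 0.850-fold, adjusted p = 0.0372) missed the threshold in 8 fits without 1 animal, with an adjusted p of 0.0838 without treated animal 3, and with trend and robust settings (0.0532). COX8C, another testis form, differed by -0.17 (adjusted p = 0.0934, or 0.0384 with a common array median), and COX7B2 by -0.012 (adjusted p = 0.941). COX7A1, the heart and muscle form of subunit 7A, differed by 0.24 (adjusted p = 0.0599, or 0.0452 with trend and robust settings), the only one of the 6 with an estimate above 0. COX8C passed without vehicle animal 4 (-0.20, adjusted p = 0.0426) and COX7A1 without treated animal 2 (0.28, adjusted p = 0.0423).

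Within each animal, the general isoform minus its restricted partner gives a measure in which a shift common to both forms cancels. A shift that differs between expressed and silent genes does not cancel in it. Families that cells in general express had a median difference of 0.21, and families that liver does not normally express had -0.088. The contrast between these families, taken within each animal, differed by 0.28 between the groups. In it 4 of 5 treated animals exceeded the highest vehicle animal. The part of such a shift in the pair values was not tested. How often other pairs of an expressed and a silent gene separate the groups was not counted. For COX4I1 minus COX4I2 the measure was -0.68, -0.75, -0.56, -0.21 and -0.50 in vehicle animals and 0.44, 0.048, 0.43, 0.13 and 0.13 in treated animals. Each treated animal exceeded each vehicle animal, by a mean of 0.78. The mean differences were 0.65 for COX6A1 minus COX6A2, 0.55 for COX6B1 minus COX6B2 and 0.52 for COX7B minus COX7B2, and in each of these pairs too all 5 treated animals exceeded the highest vehicle animal. For COX8A minus COX8C 3 of 5 treated animals did so, with a mean difference of 0.36. For COX7A2 minus COX7A1 1 of 5 did so, with a mean difference of 0.056. Because of the centring, these numbers do not say which isoform was the more abundant. A pooled set of genes from families that liver does not normally express, described further on, had a median difference of -0.088. By family the median was -0.22 for cornified envelope proteins (16 of 27 lower), -0.18 for vomeronasal receptors and -0.12 for keratin-associated proteins. It was -0.075 for olfactory receptors, -0.055 for taste receptors and 0.0075 for beta-defensins. Whether probes of restricted isoforms read their own transcript in liver was not tested.

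**Figure D2:**
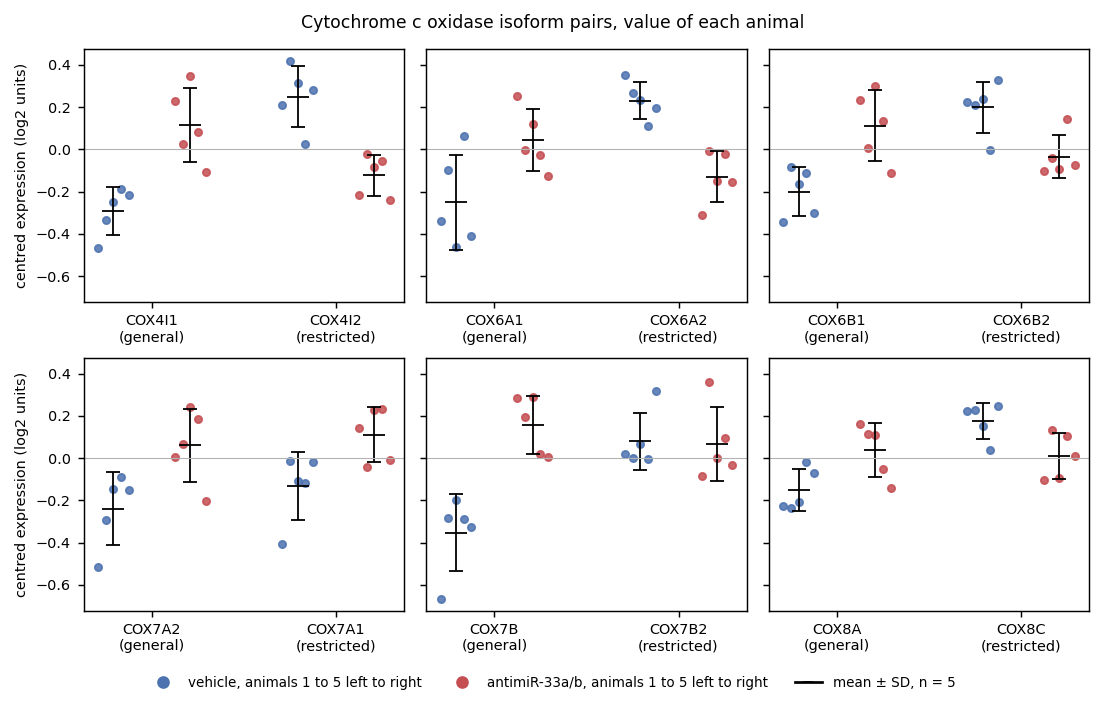
Expression of the general and of the tissue-restricted isoform of 6 complex IV subunits in each animal (log2 units, centred per feature). Each isoform has 5 vehicle and 5 treated animals, with mean and SD of each group. Treated and vehicle points are separate for COX4I1, COX7B, COX4I2 and COX6A2 and overlap for the other isoforms.

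In complex V 5 of 16 genes rose and 2 fell, with a median difference of 0.21. By role, 2 of 4 genes of the catalytic F1 head rose, 1 of 3 genes of the c ring, 2 of 4 of the peripheral stalk and none of the 5 small membrane subunits. ATP5F1B, the beta subunit that carries the catalytic sites, read -0.49, -0.22, -0.34, -0.034 and -0.77 in vehicle animals 1 to 5. In treated animals 1 to 5 it read 0.21, 0.047, 0.47, 0.17 and 0.032. The groups were separate, with vehicle animal 5 the lowest and treated animal 3 the highest. ATP5F1B rose by 0.56 (SE 0.12, 1.47-fold, adjusted p = 0.0101), the largest estimate of the 79 genes. Its alpha partner ATP5F1A read -0.56, -0.20, -0.18, -0.062 and -0.59 in vehicle animals and 0.15, -0.075, 0.22, 0.056 and 0.039 in treated animals, where vehicle animal 4 lay just above treated animal 2. ATP5F1A rose by 0.40 (SE 0.10, 1.32-fold, adjusted p = 0.0189) and missed the threshold in 2 fits without 1 animal, with an adjusted p of 0.0506 without vehicle animal 1.

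ATP5PD, subunit d of the peripheral stalk that holds the head still, read -0.50, -0.29, -0.23, -0.097 and -0.38 in vehicle animals and 0.15, -0.023, 0.30, 0.048 and -0.036 in treated animals. The groups did not overlap, and the rise was 0.39 (SE 0.086, 1.31-fold, adjusted p = 0.00966). ATP5MC1, one of the genes for the proton-carrying subunit c, read -0.25, -0.089, -0.066, -0.12 and -0.12 in vehicle animals and -0.0027, 0.078, 0.13, 0.16 and 0.0066 in treated animals. The groups were separate by a narrow margin at vehicle animal 3 and treated animal 1. ATP5MC1 rose by 0.20 (SE 0.059, 1.15-fold, adjusted p = 0.0289) and missed the threshold in 4 fits without 1 animal, with an adjusted p of 0.0792 without vehicle animal 1.

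Both lower genes of complex V encode small membrane subunits bound to the synthase dimer. ATP5MK read 0.27, 0.43, 0.29, 0.25 and 0.24 in vehicle animals and -0.31, -0.055, -0.12, 0.084 and 0.076 in treated animals. No treated animal reached the vehicle range, whose highest value was that of animal 2. ATP5MK fell by 0.36 (SE 0.078, 0.777-fold, adjusted p = 0.00868). ATP5MJ read 0.19, 0.12, 0.27, -0.029 and 0.28 in vehicle animals and -0.25, -0.049, -0.068, -0.053 and 0.055 in treated animals. Vehicle animal 4 and treated animal 5 overlapped, and ATP5MJ fell by 0.24 (SE 0.075, 0.847-fold, adjusted p = 0.0392), a call lost in 8 fits without 1 animal, with an adjusted p of 0.0913 without vehicle animal 3. Of the other 10 complex V genes 1, ATP5PO of the peripheral stalk, rose, and 9 did not pass, with estimates of -0.17 to 0.33. ATP5MF, named after its values were seen, had all treated values above all vehicle values but a difference of 0.14 with an adjusted p of 0.141. The count of higher complex V genes was 2 without vehicle animal 1 or treated animal 3, 3 without vehicle animal 2 or treated animal 4, and 8 without vehicle animal 4. The count of lower ones was 1 in 8 of the 10 fits without 1 animal.

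The genes that the symbol rule took beside the complexes did not pass. COX7A2L, which joins complexes III and IV into supercomplexes, differed by 0.088 (adjusted p = 0.402), and by 0.038 without treated animal 3. ATP5IF1, the inhibitor that stops the synthase from splitting ATP, differed by -0.11 (adjusted p = 0.152). Of the 79 genes 10 had several features, and for 7 of these all features had estimates of the same sign. The exceptions were ATP5MC2, ATP5PF and NDUFV3, none of which passed. In a limma fit of every feature alone, 29 of the 93 features were higher, where 13.6% of all features with a symbol were. For ATP5F1D, which did not pass as a gene, 1 feature was lower there (-0.24, adjusted p = 0.0389) and the other was not called (-0.087, adjusted p = 0.399).

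The same animals stood at the ends of the range for many genes. The median over the 79 genes was -0.24, -0.082, -0.094, -0.029 and -0.097 in vehicle animals 1 to 5 and 0.13, -0.021, 0.12, 0.074 and -0.040 in treated animals 1 to 5. Treated animals 1, 3 and 4 were above every vehicle animal and treated animal 2 narrowly so, while treated animal 5 lay within the vehicle range. Vehicle animal 1 had the lowest vehicle value for 47 of the 79 genes and vehicle animal 5 for 15, and vehicle animal 4 had the highest vehicle value for 32. Among treated animals the highest value was that of animal 3 for 26 genes and animal 1 for 22, and animal 5 had the lowest for 38. The standard deviation between animals had a median over the 79 genes of 0.13 in vehicle and 0.14 in treated animals, against 0.12 and 0.11 over all genes.

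**Figure D3:**
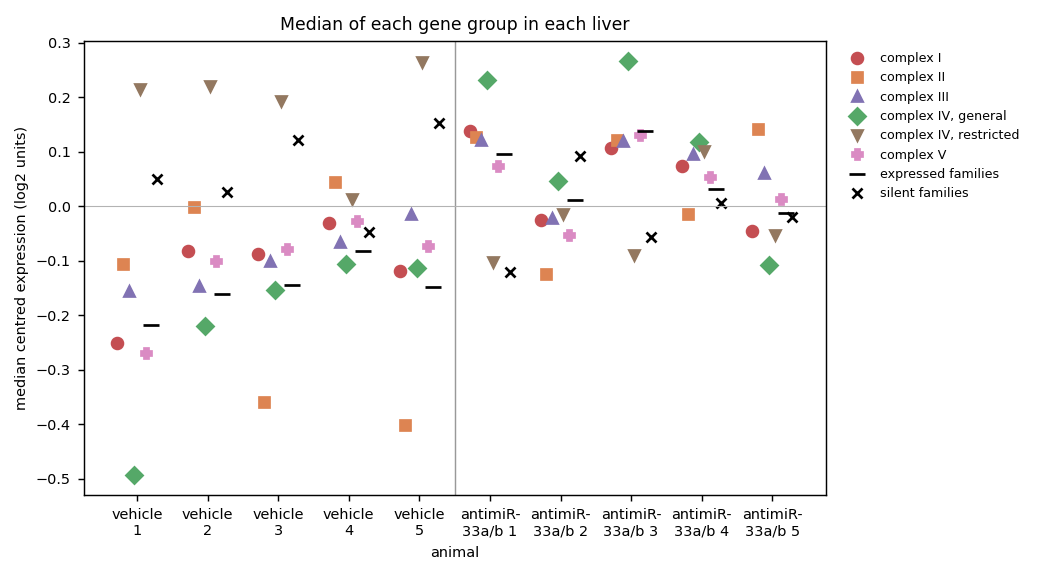
Median expression of gene groups in every animal (log2 units, centred per feature), vehicle and treated animals side by side. The groups are complexes I, II, III and V, the general and the restricted isoforms of complex IV, and the expressed and silent families described below. Vehicle animal 1 is the lowest animal for complexes I, III and V and for the general isoforms of complex IV. Treated animal 5 is the lowest treated animal for complex I and for the general isoforms of complex IV.

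Unrelated gene families read on the same arrays also differed between the groups, and 2 sets of them were formed by symbol. The first held 303 genes of families that cells in general express, such as cytosolic ribosomal proteins, the proteasome and splicing factors. Of these 134 were higher and 4 lower, with a median difference of 0.21. The second held 513 genes of families that liver does not normally express, such as olfactory receptors and keratin-associated proteins. Of these 8 were higher and 90 lower, with a median of -0.088. Subtracting the silent-family median from the expressed-family median in each animal gave -0.27, -0.19, -0.27, -0.036 and -0.30 in vehicle animals and 0.21, -0.082, 0.20, 0.026 and 0.0063 in treated animals. Its group means were -0.21 ± 0.11 and 0.072 ± 0.13 (SD, n = 5 each), and 4 of 5 treated animals were above the highest vehicle animal, treated animal 2 being the exception. No measure of RNA quality was analysed here.

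With that contrast as a covariate in the limma fit, 3.47% of all genes passed. Of the 79 genes 2 did, which is no larger a share. UQCR11 was higher, by 0.38 (adjusted p = 0.0402), and NDUFV1 was lower, by -0.72 (adjusted p = 0.0392). The median difference of the 79 genes became 0.035, against 0.095 over all genes, and 45 of 79 estimates were above 0. Of the 27 genes higher without the covariate 24 kept a positive estimate and 26 had a smaller one. All 5 lower genes kept a negative estimate, and none of them passed. The adjusted p was 0.221 for COX4I2, 0.230 for COX6A2 and 0.746 for COX6B2. The medians were 0.0064 for complex I, -0.048 for complex II, 0.11 for complexes III and IV and 0.020 for complex V. The covariate and the treatment differ together between the groups, so with 5 animals each their parts cannot be told apart.

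**Figure D4:**
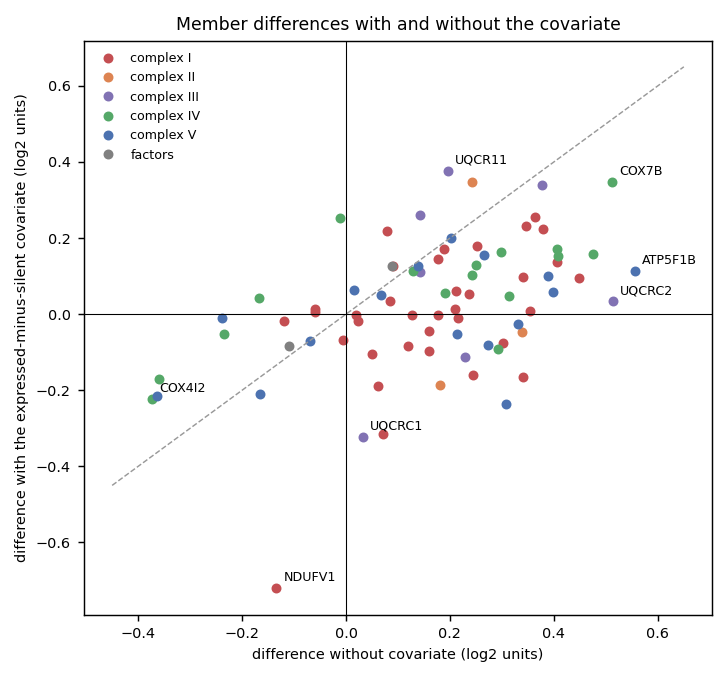
Difference between treated and vehicle animals for each of the 79 genes (log2 units) without and with the expressed-minus-silent contrast as a covariate. Of the 27 genes higher without it 26 have a smaller estimate with it. UQCR11 and NDUFV1 are the genes that pass there, where 3.47% of all genes do.

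Genes that work beside the complexes were taken from lists that do not overlap the 79. Among 14 assembly factors of complex I 2 rose, NDUFAF1 (0.25) and NDUFAF7 (0.19), with a list median of 0.034. That is 14.3% of the list, where 13.7% of all genes were higher and their median was 0.039. Among 32 measured assembly factors of complexes II to V 8 rose and 2 fell, with a median of 0.13. COA1, an assembly factor that acts early on complex IV, rose by 0.39 (adjusted p = 0.00458), and TMEM70, needed for the ATP synthase c ring, by 0.32 (adjusted p = 0.00824). COX20, a chaperone of a mitochondrially encoded complex IV subunit, fell by 0.25 (adjusted p = 0.0186). Among 17 regulators of mitochondrial biogenesis 6 rose and none fell, with a median of 0.15. TFAM, which packages and transcribes mitochondrial DNA, rose by 0.35 (adjusted p = 0.00635), and GABPA, a transcription factor of many subunit genes, by 0.35 (adjusted p = 0.0116).

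Of 12 genes of coenzyme Q synthesis 4 rose (33.3%, median 0.12), and of 12 measured citric acid cycle genes 3 rose (25%, median 0.15). Over all genes 13.7% were higher, with a median of 0.039. SUCLG1, a subunit of succinyl-CoA synthetase, had a difference of 0.55 (adjusted p = 0.0176). Of 7 measured adenine nucleotide, phosphate and outer membrane channels 3 rose, with a median of 0.20. These were VDAC3 (0.47), VDAC2 (0.45) and SLC25A3 (0.44), the mitochondrial phosphate carrier. Among 11 other nuclear subunits and electron carriers 1 rose and 1 fell, 9.09% each, with a median of 0.24. Over all genes 13.7% were higher and 6.8% lower. The gene that fell had the only estimate below 0 in this list (-0.19). ETFA, which brings electrons from fatty acid oxidation, was the one that rose, by 0.56 (adjusted p = 0.0154). CYC1, the cytochrome of complex III, differed by 0.31 and did not pass (adjusted p = 0.0526).

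The share of higher genes was 34.2% of the respiratory chain genes, 28 of 77 mitochondrial ribosomal proteins (median difference 0.18), 41 of 76 cytosolic ribosomal proteins (0.24) and 20 of 43 proteasome genes (0.27). It was 3 of 22 mitochondrial import translocases (0.095), 7 of 29 RNA polymerase genes (0.088) and 7 of 34 vesicle sorting genes (0.11). The differences between these families were not tested. Cell type markers were counted in the same way, where 13.7% of all genes were higher and 6.8% lower. Of 11 hepatocyte markers 5 rose, among them ALB (0.44, adjusted p = 0.00721), and none fell. Their median was -0.37, -0.19, -0.098, -0.014 and -0.16 in vehicle animals and -0.10, 0.13, 0.15, 0.072 and 0.034 in treated animals, lowest in vehicle animal 1. Of 8 muscle and fat markers 1 rose (PLIN1, 0.60) and 1 fell (CKM, -0.31), 12.5% each, with a median of -0.012. Of 8 T and NK cell markers none rose and 2 fell, and of 5 red cell markers none passed, with a median of 0.91. Of 8 stellate, 7 endothelial and 5 B and plasma cell markers 2 each rose, and of 7 macrophage and 6 cholangiocyte markers none passed. The part of any of these in the respiratory chain values was not tested.

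**Figure D5:**
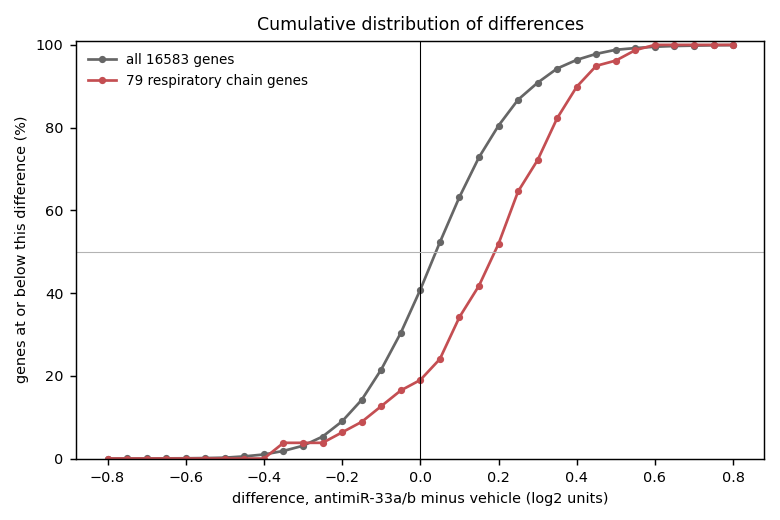
Cumulative share of genes (percent) at or below each difference between treated and vehicle animals (log2 units), for the 79 respiratory chain genes and for all 16583 genes. The curve of the respiratory chain genes lies to the right, with 19.0% of them at or below 0 against 40.8% of all genes.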

How the data were processed

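Total RNA (1 µg) of 10 liver biopsies was labelled and hybridised to one-colour arrays, per the labels' protocols. The authors deposited 1 table of log-scale values centred per feature, taken here as log2. The log base, scanner, normalization, centring step and how probes were combined were not given in the sources used here, and signal over background is unknown. The number of arrays, 5 per group, limits the precision. The platform annotation, which may be old, gave 1 gene symbol for 18188 features, several for 0 and none for 26845, and a gene's value is the mean of its features. Treated minus vehicle was fitted in limma 3.58.1 (R 4.3.3, lmFit and eBayes, no covariate) over all 16583 genes with Benjamini-Hochberg adjustment and a threshold of 0.05. The script was tested on simulated data with independent noise for each gene. That simulation held no shift shared by genes of an array, so it does not cover the shift between expressed and silent families.

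The members and gene lists were chosen with earlier results of these data known, so they are no independent support for a direction. The naming rule took the 6 genes with the smallest p of complexes I, IV and V and all of complexes II and III. It also took all genes called lower, all tissue-restricted isoforms and both other factors, 34 in all. The values of each animal are printed for only some of them. From each companion list up to 3 genes among the smallest p were named. Exceptions are marked in the text. Alternatives were quantile normalization, a common array median, the most variable feature per gene, every feature alone, array weights, eBayes with a trend and robust estimation, an exact permutation test per gene, the covariate and fits without each animal. Planned comparisons of promoters and protein sequences were not run. Probe sequences, near-identical gene copies and mismatches to monkey transcripts were not examined. The labels state no slide, scan or extraction batch, and no group that received either single antimiR (antimiR-33a, antimiR-33b) was analysed here.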

Additional observations from a re-analysis of the deposited data

Results flagged for a closer look

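Among 80 sets of 5 values, those of 34 named genes, of the median of each complex and of the median of all 79 genes in each group, 9 held 1 animal that stood far from the other 4 by Dixon's test (critical value 0.710). Chance alone gives about 1 in 20 such sets. Vehicle animal 1 was the low value for NDUFS5 (-0.375), COX7B (-0.667), COX7A1 (-0.407) and the complex IV median (-0.343). UQCRB was low in vehicle animal 2 (-0.874) and in treated animal 4 (-0.647). High values stood apart for COX6B2 in treated animal 4 (0.142), COX7B2 in vehicle animal 5 (0.318) and ATP5MK in vehicle animal 2 (0.428). Without the animal in question the adjusted p was 0.0174 for NDUFS5, 0.00808 for COX7B, 0.0257 for ATP5MK, 0.0238 for COX6B2, 0.139 for COX7A1 and 0.724 for COX7B2. For UQCRB it was 0.457 without vehicle animal 2 and 0.0307 without treated animal 4.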

How the results depend on the processing

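The count of respiratory chain genes higher in treated animals was 27, and it became 15 after quantile normalization, 1 with the covariate and 0 by the exact permutation test, whose smallest p of 0.0079 adjusts to 0.0596 and which called 0 of all genes. At an unadjusted exact p under 0.05, 44 of the 79 genes passed. The share of all genes at that level was not counted, so this count says nothing particular to these genes. The count of lower genes was 5, and it became 1 with the covariate and 0 by the exact permutation test. Without each animal in turn the counts ran from 10 to 34 higher and from 3 to 6 lower. The shares over all genes in these fits ran from 7.77% to 15.2% higher and from 3.84% to 9.67% lower. The counts stayed within 1.5 times under a common array median (21 and 6), the most variable feature (27 and 6), trend and robust settings (28 and 4) and array weights (33 and 6). With the covariate the median difference was 0.035 over all 79 genes, 0.0064 in complex I, -0.048 in complex II, 0.11 in complex III, 0.11 in complex IV and 0.020 in complex V. The medians moved by less than the spread between animals under the other alternatives run for them.

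Signs of named genes changed with the covariate for SDHA (-0.19), SDHD (-0.048), UQCRC1 (-0.32), UQCRQ (-0.11), COX7B2 (0.25) and COX8C (0.043). After quantile normalization they changed for UQCRC1 (-0.026) and COX7B2 (0.015), and with array weights for COX7B2 (0.016). Without each animal in turn UQCRC1 ran from -0.037 to 0.081 and COX7B2 from -0.085 to 0.047. The cause was not tested. No paired analysis was possible because no label pairs a treated with a vehicle animal.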
